A study of Mus musculus with 10 samples.

Results

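Blood vessels run through gastrocnemius (GTN) muscle between the myofibers, so RNA from whole muscle also carries transcripts of the endothelial cells that line them. A set of 39 genes known for expression in endothelial cells was followed in GTN muscle after loss of *Txnrd2*, the mitochondrial thioredoxin reductase, in myofibers. Each gene was measured by the probe set that the platform annotation gives its symbol, and the brightest one stood for the gene. This gave values for 38 of the 39 genes, out of 19505 genes with a single symbol on 22206 probe sets. No probe set carried the symbol *Egfl7* in the annotation at hand. *Ly6c1*, *Tmem100* and *Rgcc* were set against the other 35 measured genes, and all 3 had been picked with their values known.

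The arrays came from 5 mTKO mice, *Txnrd2* fl/fl with Cre recombinase driven by the human *ACTA1* promoter, and from 5 ctrl mice, *Txnrd2* fl/fl without Cre. All were males on a C57BL/6N background, fed chow and aged 60 days, with 1 mouse per array, and littermates were preferred as ctrl. *ACTA1*-driven Cre acts in myofibers and not in satellite cells, so endothelial cells lie outside the stated site of deletion. The arrays read whole muscle, and signal of these genes from myofibers or other cells was not measured apart. Since ctrl mice carry no Cre, its presence and the deletion cannot be told apart in these arrays. *Txnrd2* itself had a log2 signal of 7.51 to 7.96 in mTKO muscle and of 8.47 to 9.08 in ctrl muscle, a difference of -0.998 (limma adjusted p 0.118), and no array went against its label.

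Endothelial cells form the inner wall of arteries, capillaries, veins and lymphatic vessels. They are joined by VE-cadherin and claudin junctions and depend on VEGF, angiopoietin, BMP9, Notch and sphingosine-1-phosphate signals for growth and rest. In skeletal muscle most of them sit in capillaries that wrap each fiber and hand over oxygen, fatty acids and glucose. The defining markers of the cell type were well measured in whole GTN muscle. Of the 38 genes, 32 had a mean log2 signal above the median of all probe sets, which was 6.07. The 6 below it were *Sox17*, *Sox18*, *Apln*, *Tal1*, *Clec14a* and *Notch4*, where small changes are harder to see.

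The differences of the endothelial genes lay on both sides of 0 in mTKO muscle, while *Ly6c1*, *Tmem100* and *Rgcc* lay lower in all 5 mTKO mice than in any ctrl mouse. The median log2 difference (mTKO minus ctrl) over the 38 genes was 0.003, against 0 over all genes, and 19 of 38 differences were negative, against 49.9% of all probe sets. None of the 38 passed an adjusted p of 0.05 in limma, where 1 of 22206 probe sets did (0.0045%). At an unadjusted limma p under 0.05, 5 of the 38 genes stood out (13.2%), all lower in mTKO muscle, against 6.36% of all probe sets, 3.26% lower and 3.1% higher. The groups did not overlap in 3 of the 38 (7.89%), again all lower, against 1.02% of all probe sets and 0.527% in that direction. Among the brighter probe sets, with a mean above the median, these shares in the lower direction were 3.13% and 0.577%. The 3 genes without overlap were *Ly6c1*, *Tmem100* and *Rgcc*, picked with their values known, so the shares over the 38 genes reflect that choice. Of the other 35 genes, 0 were without overlap and 2 had an unadjusted limma p under 0.05, both lower. In whole muscle, fewer endothelial cells, less of a transcript per endothelial cell and less of it in other cells cannot be told apart.

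*Rgcc* encodes a regulator of the cell cycle that is known as a capillary endothelial transcript. It had a log2 signal of 9.34, 9.71, 9.85, 9.08 and 9.90 in mTKO replicates 1 to 5, against 10.36, 10.58, 10.23, 10.37 and 10.23 in ctrl replicates 1 to 5. Every mTKO mouse lay below every ctrl mouse, with 0.33 between the highest mTKO and the lowest ctrl array. The mean was 9.58 ± 0.35 in mTKO muscle and 10.35 ± 0.14 in ctrl muscle (SD, n = 5 each), a log2 difference of -0.78 (95% interval -1.16 to -0.40, limma) or 0.583 of the ctrl signal. The exact permutation test gave p = 0.00794, the smallest that 5 arrays against 5 allow, and the adjusted p from limma over all probe sets was 0.442. Any probe set whose groups do not overlap gets this exact p, and 227 of 22206 did not overlap. As *Rgcc* had been picked with its values known, the exact p only restates the lack of overlap. By limma p *Rgcc* ranked 24 of all 22206 probe sets.

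*Ly6c1* encodes a small surface protein of the Ly6 family, tethered to the membrane by a lipid anchor and abundant on capillary endothelium. Its log2 signal was 14.42, 14.30, 14.65, 14.21 and 14.21 in mTKO replicates 1 to 5, against 14.80, 15.03, 15.20, 15.13 and 14.84 in ctrl replicates 1 to 5. The groups again did not overlap, by a margin of 0.15. The mean of 14.36 ± 0.18 in mTKO muscle and 15.00 ± 0.18 in ctrl muscle (SD, n = 5 each) gave a log2 difference of -0.64 (95% interval -0.97 to -0.32, limma), or 0.641 of the ctrl signal. The exact permutation p was 0.00794, which follows from the lack of overlap alone, and the adjusted p from limma was 0.539. With the trended and robust variance prior of limma the adjusted p was 0.0453, and *Ly6c1* was then the only one of the 38 genes among 9 probe sets called.

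*Tmem100* encodes a membrane protein of endothelium that is switched on by BMP9 and BMP10 through the receptor ALK1. It had a log2 signal of 8.95, 9.17, 9.23, 7.85 and 9.10 in mTKO replicates 1 to 5, against 10.46, 10.12, 10.11, 9.29 and 9.69 in ctrl replicates 1 to 5. The groups were apart by only 0.06, since mTKO replicate 3 came close to ctrl replicate 4. Means of 8.86 ± 0.57 in mTKO muscle and 9.93 ± 0.45 in ctrl muscle (SD, n = 5 each) gave the largest difference among the 38 genes, -1.07 on the log2 scale (95% interval -1.64 to -0.51, limma), or 0.475 of the ctrl signal. The exact permutation p was again 0.00794, as the lack of overlap fixes it, and the adjusted p from limma was 0.562. The mTKO replicate 4 was far below the other mTKO mice, and without it the difference was -0.82.

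**Figure D1:**
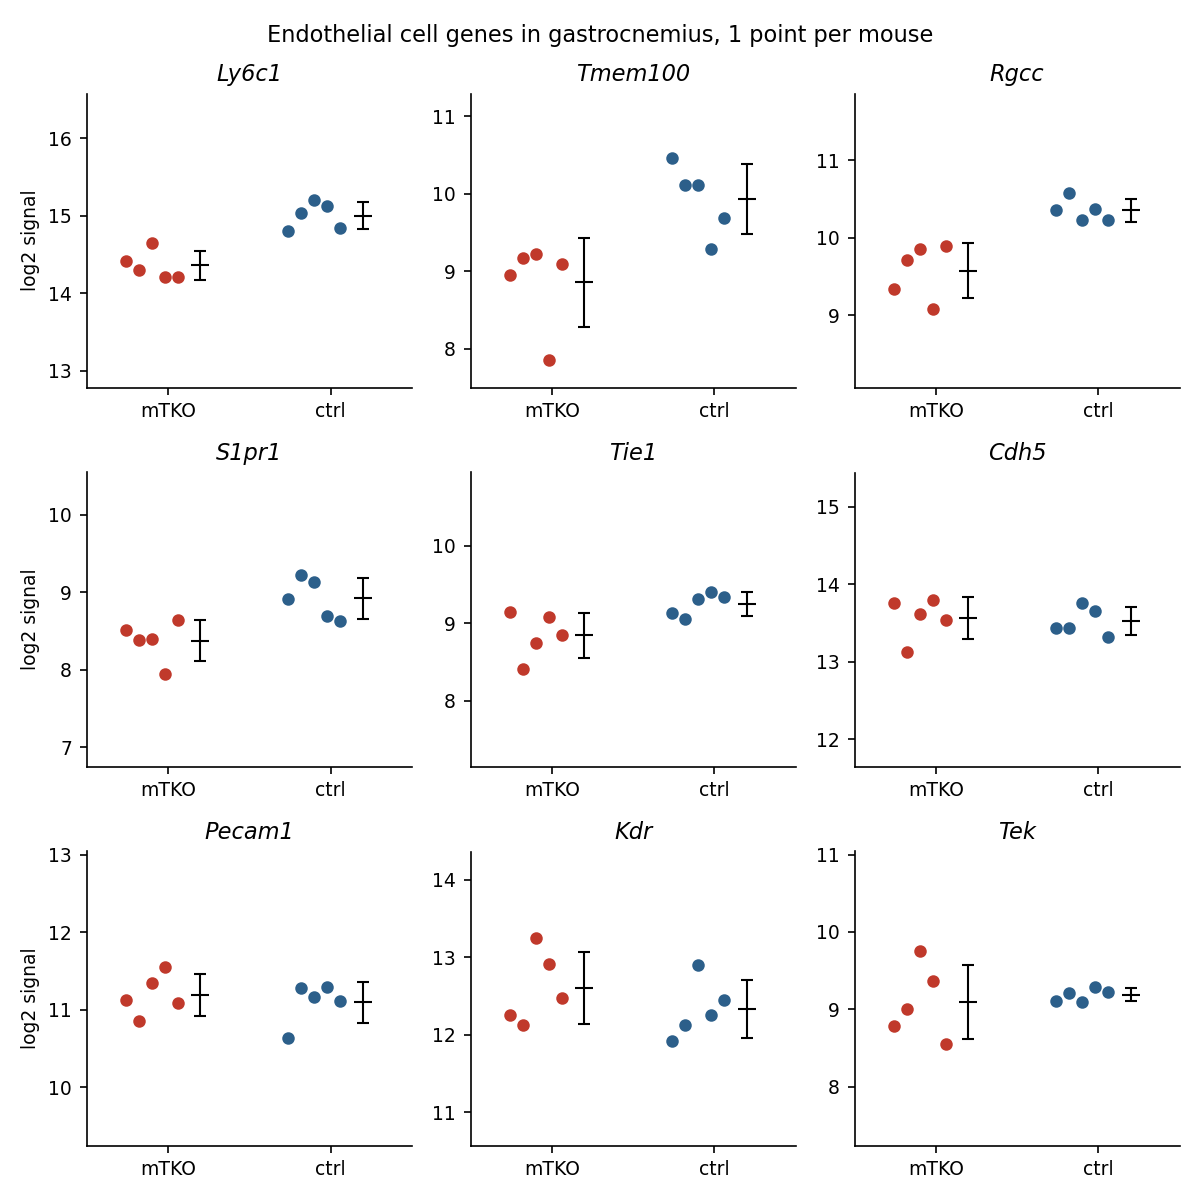
Log2 signal of 9 endothelial cell genes in GTN muscle, 1 point per mouse in order of replicate number, with mTKO (red) left of ctrl (blue) and the mean ± SD in black beside each group; all panels span the same range of log2 units. The points of *Ly6c1*, *Tmem100* and *Rgcc* do not overlap between groups, while those of *Cdh5*, *Pecam1*, *Kdr* and *Tek* do.

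The sequence before the start of *Rgcc* and *Ly6c1* is shown because both genes lay lower without overlap. *Tmem100* did so too, but the promoter sequences at hand held no entry for it. *Ly6c2* is the close copy of *Ly6c1*, and *Kdr* is a defining endothelial gene whose groups overlapped. Each is the 250 bases before the annotated start on the minus strand of GRCm38.p6, from RefSeq, written 5′ to 3′, with matches to the ETS core GGAAG on either strand in capitals. Where RefSeq gave several starts, the one farthest upstream was used.
Rgcc, chr14:79301636-79301885: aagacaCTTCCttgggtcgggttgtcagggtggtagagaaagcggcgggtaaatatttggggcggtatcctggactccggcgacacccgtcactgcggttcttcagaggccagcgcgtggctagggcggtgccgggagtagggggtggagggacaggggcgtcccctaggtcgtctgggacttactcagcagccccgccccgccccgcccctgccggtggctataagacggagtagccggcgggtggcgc
Ly6c1, chr15:75048838-75049087: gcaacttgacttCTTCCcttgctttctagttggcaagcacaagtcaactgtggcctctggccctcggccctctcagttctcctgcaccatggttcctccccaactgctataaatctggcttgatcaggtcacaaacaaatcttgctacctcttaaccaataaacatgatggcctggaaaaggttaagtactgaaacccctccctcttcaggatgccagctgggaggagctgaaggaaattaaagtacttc
Ly6c2, chr15:75111972-75112221: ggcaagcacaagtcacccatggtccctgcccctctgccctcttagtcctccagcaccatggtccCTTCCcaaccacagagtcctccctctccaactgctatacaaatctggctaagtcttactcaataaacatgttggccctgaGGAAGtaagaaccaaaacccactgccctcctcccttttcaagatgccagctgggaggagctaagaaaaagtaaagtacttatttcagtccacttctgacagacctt
Kdr, chr5:75978456-75978705: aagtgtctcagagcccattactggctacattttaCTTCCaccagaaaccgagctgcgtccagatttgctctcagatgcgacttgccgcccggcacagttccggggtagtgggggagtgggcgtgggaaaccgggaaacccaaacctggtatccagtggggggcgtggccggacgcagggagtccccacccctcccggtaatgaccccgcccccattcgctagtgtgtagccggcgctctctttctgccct

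The table of promoters held 19 of the 39 genes. An ETS core, the recognition letters of the factor family that holds ERG and FLI1, was present in 15 of these 19 windows and in 63.7% of the windows of 27025 genes. The *Rgcc*, *Ly6c1* and *Kdr* windows had 1 match each, 244, 238 and 216 bases before the start, and the *Ly6c2* window had 2. The SOX letters ACAAT were found in 6 of 19 windows (28.2% of all genes), the GATA letters AGATAA in 1 (10.2%) and the SMAD letters GGCGCC in 0 (9.57%), each searched on both strands, and matches to different motifs may share letters. None of these 3 occurred in the 4 windows shown. The windows of *Ly6c1* and *Ly6c2* had 164 of 216 aligned bases in common (75.9%). The transcripts of the pair are also close copies, and a probe set of one may take up signal of the other. *Ly6c2*, which encodes the Ly6C antigen of monocytes, had a log2 signal of 9.59, 8.52, 8.90, 9.16 and 8.33 in mTKO replicates 1 to 5, against 9.45, 9.66, 9.45, 9.64 and 9.37 in ctrl replicates 1 to 5. It lay below the ctrl range in all mTKO mice but replicate 1, and differed by -0.61 on the log2 scale (limma adjusted p 0.726).

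Of the 13 junction and surface genes, *Ly6c1* was the only one at an unadjusted limma p under 0.05. *Cdh5*, encoding the VE-cadherin of adherens junctions, had a log2 signal of 13.76, 13.12, 13.61, 13.79 and 13.54 in mTKO muscle, against 13.44, 13.44, 13.76, 13.65 and 13.32 in ctrl muscle. The difference was 0.04 with a 95% interval of -0.31 to 0.39 from limma, and a fall of the size seen for *Ly6c1* lies outside that interval. *Pecam1*, the adhesion molecule CD31 of endothelial contacts, had 11.12, 10.85, 11.35, 11.55 and 11.08 on the log2 scale in mTKO muscle, against 10.64, 11.28, 11.16, 11.29 and 11.11 in ctrl muscle. The groups overlapped, with 2 of 5 mTKO mice above the highest ctrl array, and the difference was 0.09 (95% interval -0.28 to 0.47, limma).

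Other genes of the endothelial surface had differences in both directions, from -0.33 for *Clec14a* to 0.56 for *Cldn5*. Log2 differences were 0.02 for *Emcn*, a sialomucin of capillaries and veins, 0.07 for *Podxl*, another sialomucin, 0.04 for *Cd34*, 0.09 for the tight junction protein gene *Esam* and -0.004 for the adhesion gene *Icam2*. *Mmrn2*, an extracellular glycoprotein of the vessel wall, and the C-type lectin gene *Clec14a* differed by -0.04 and -0.33. *Clec14a*, dim with a mean log2 signal of 5.48, was below the lowest ctrl array in 4 of 5 mTKO mice. The guidance receptor gene *Robo4* and *Plvap*, which builds the diaphragms of fenestrae and caveolae, differed by -0.22 and -0.28. *Cldn5*, the main claudin of endothelial tight junctions, had the highest difference of the 38 genes, 0.56. Its log2 signal ran from 7.39 to 9.23 in mTKO muscle and from 7.55 to 8.46 in ctrl muscle, and the adjusted p from limma was 0.819.

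Among the receptors for VEGF, *Kdr*, the main signalling receptor VEGFR2, had a log2 signal of 12.26, 12.13, 13.25, 12.91 and 12.48 in mTKO muscle, against 11.92, 12.12, 12.90, 12.25 and 12.45 in ctrl muscle. The ranges overlapped widely, with a difference of 0.28 (95% interval -0.21 to 0.77, limma). *Flt1*, the receptor that binds VEGF and limits its action, differed by -0.20. Among the 9 measured VEGF ligands and receptors, which include *Kdr* and *Flt1*, none had an unadjusted limma p under 0.05, 4 differences were negative and the median was 0.12. *Vegfa*, the ligand that myofibers release, differed by -0.30 (limma adjusted p 0.849).

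In the angiopoietin branch, *Tie1* was one of the 5 genes at an unadjusted p under 0.05. This orphan receptor, a partner of TIE2, had a log2 signal of 9.14, 8.41, 8.75, 9.08 and 8.85 in mTKO replicates 1 to 5, against 9.13, 9.05, 9.32, 9.41 and 9.34 in ctrl replicates 1 to 5. All 5 mTKO mice lay below the ctrl mean and 3 below the lowest ctrl array, with a difference of -0.40 (95% interval -0.76 to -0.05, limma; adjusted p 0.781). The lowest value was that of mTKO replicate 2, and without it the difference was -0.30 with an unadjusted limma p of 0.0873. The unadjusted limma p was also above 0.05 without mTKO replicate 3 (0.0548) or ctrl replicate 3, 4 or 5 (0.0517, 0.0627 and 0.0545). *Tek*, which encodes TIE2, had 8.78, 9.0, 9.75, 9.37 and 8.55 on the log2 scale in mTKO muscle, against 9.11, 9.21, 9.10, 9.29 and 9.23 in ctrl muscle. The mTKO mice spread to both sides of the tightly grouped ctrl mice, so that the difference was -0.10 (95% interval -0.53 to 0.33, limma). *Ptprb*, the phosphatase VE-PTP that acts on TIE2, and *Angpt2*, a ligand of TIE2, differed by -0.05 and 0.02.

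*S1pr1*, the receptor by which endothelial cells sense sphingosine-1-phosphate in blood, also lay lower. Its log2 signal was 8.51, 8.38, 8.40, 7.94 and 8.64 in mTKO replicates 1 to 5, against 8.92, 9.23, 9.13, 8.70 and 8.63 in ctrl replicates 1 to 5. Only mTKO replicate 5 reached the ctrl range, by 0.01. The difference was -0.55 (95% interval -0.92 to -0.18, limma), with an exact permutation p of 0.0159 and an adjusted p from limma of 0.685. *Ramp2*, which pairs with the receptor for adrenomedullin, differed by -0.32 and was below the lowest ctrl array in 3 of 5 mTKO mice. *Aplnr*, the apelin receptor found in veins and growing capillaries, went the other way, with a difference of 0.46, 4 of 5 mTKO mice above the highest ctrl array and replicate 2 below the lowest one. The adjusted p from limma for *Aplnr* was 0.840, and its ligand gene *Apln* differed by 0.02.

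The BMP9 pathway was measured beyond *Tmem100*, since the gene is one of its targets. The co-receptor gene *Eng* and *Acvrl1*, which encodes ALK1, differed by -0.04 and 0.01 on the log2 scale. In the list of 15 genes for BMP9, BMP10 and ALK1 signalling, 9 differences were negative and the median was -0.04. At an unadjusted limma p under 0.05, 2 genes were lower, against 3.26% of all probe sets. They were *Tmem100*, picked with its values known, and *Bmpr2*, the type II receptor, which differed by -0.50 (limma adjusted p 0.783). Without the 38 endothelial genes, 12 remained, of which 7 were negative, with a median of -0.08, and 1 was lower at that threshold. Of the other targets, *Id1* differed by -0.03, *Id2* by -0.12, *Id3* by 0.13, *Smad6* by 0.12 and *Smad7* by 0.05. In the Notch pathway, the ligand gene *Dll4* and the receptor gene *Notch4* differed by -0.29 and 0.04. Of 12 vessel Notch genes 9 differences were negative, with a median of -0.15, and *Notch1* alone had an unadjusted limma p under 0.05, with a difference of -0.40 (adjusted p 0.783). The mean log2 signal of *Notch1* was 5.25, below the median of all probe sets.

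The transcription factors that hold endothelial identity had differences in both directions. The SOXF factor genes *Sox7*, *Sox17* and *Sox18* differed by -0.03, 0.19 and -0.13, and the ETS factor genes *Erg* and *Fli1* by 0.18 and -0.10. *Tal1*, a factor of blood and endothelial cells, differed by 0.42 (adjusted p from limma 0.821), with mTKO replicate 1 the highest array. Among the remaining genes, the nitric oxide synthase gene *Nos3* differed by 0.31, the clotting factor carrier gene *Vwf* by 0.11 and the water channel gene *Aqp1* by 0.01. In the list for shear stress and vascular tone, 8 of 11 differences were negative with a median of -0.01. *Edn1*, encoding endothelin-1, had a difference of -0.32 (adjusted p from limma 0.783) and was the gene with the smallest p there.

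**Figure D2:**
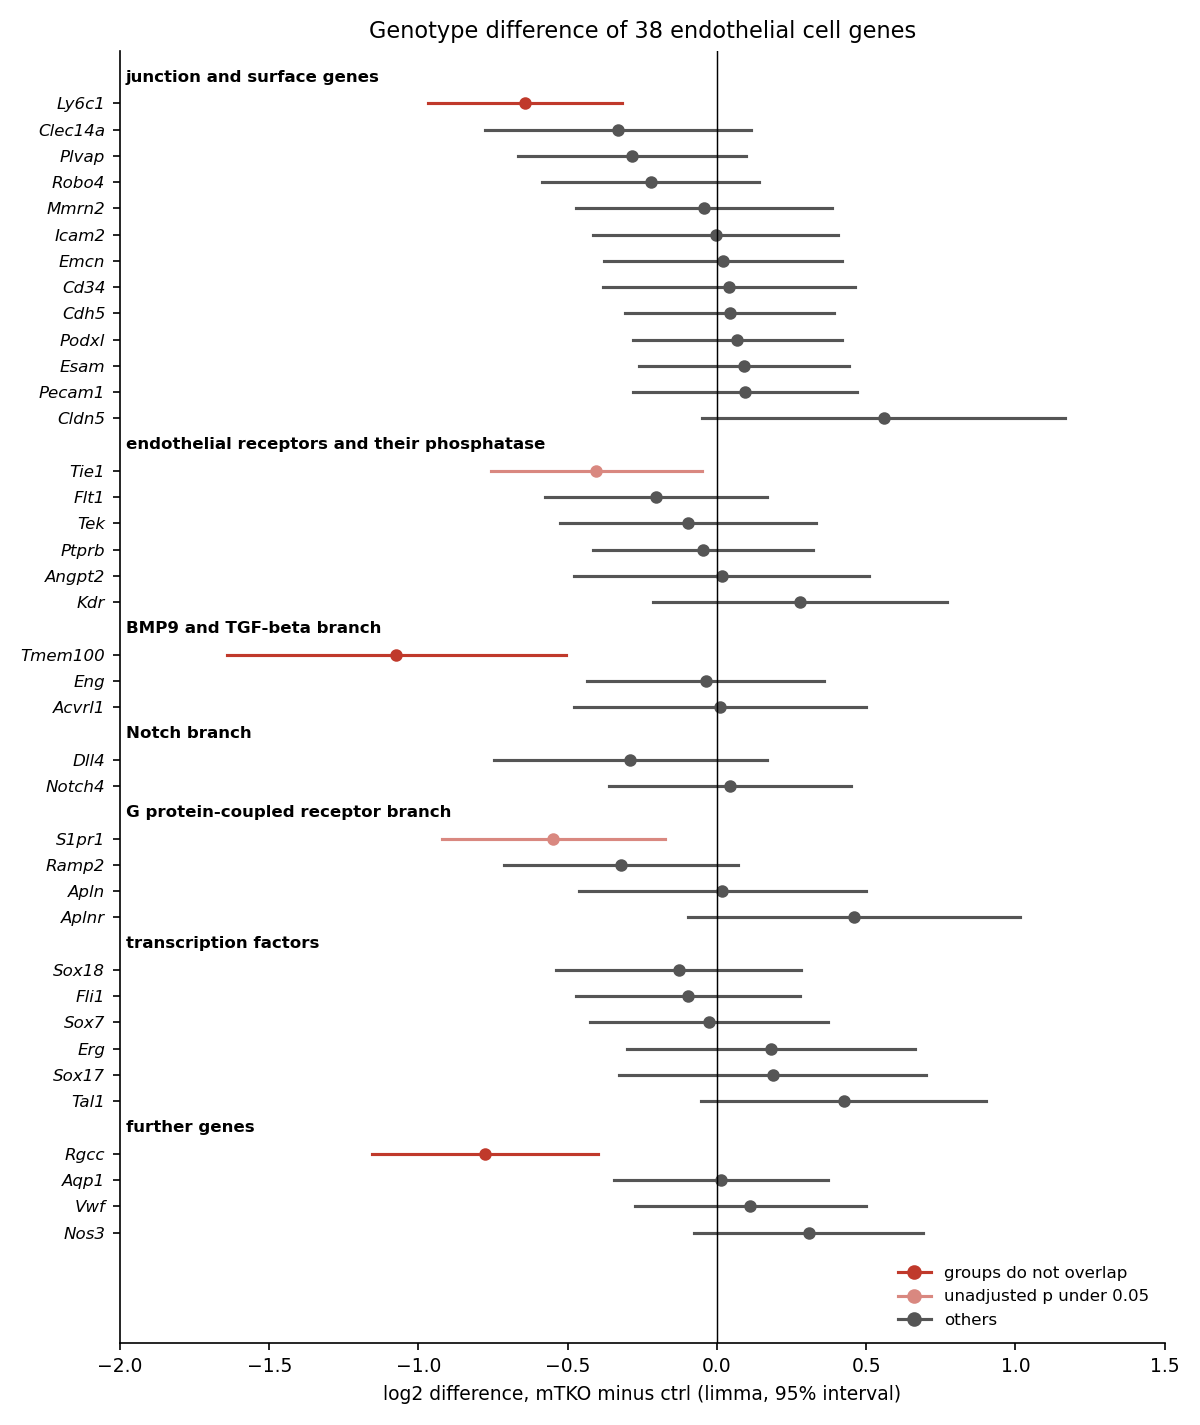
Log2 difference (mTKO minus ctrl) with its 95% interval from limma for the 38 measured endothelial cell genes, grouped by role and sorted within each group. Intervals of *Rgcc*, *Ly6c1*, *Tmem100*, *S1pr1* and *Tie1* lie below 0, and those of the other 33 genes hold 0.

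The mean of the 3 genes lay below the mean of the other 35 in every mTKO mouse, although single genes of the 35 lay as low in some mice, such as *Dll4* and *Tie1* in mTKO replicate 2 and *Clec14a* in replicate 5. Of the 35, 18 had a log2 difference within 0.1 of zero, 27 within 0.3 and 33 within 0.5, 16 were negative and the median was 0.01. For 33 of the 35 the 95% interval held 0, and for 25 it excluded a fall of 0.5. The median width to either side was 0.40, so smaller shifts of a single gene could not be seen with 5 mice per group. The mean deviation of the 35 genes from their ctrl means was 0.05, -0.23, 0.21, 0.11 and -0.15 in mTKO replicates 1 to 5, and lay between -0.16 and 0.13 in ctrl mice. The mean of the 3 genes less that of the 35 was -0.91, -0.47, -0.73, -1.5 and -0.54 in mTKO replicates 1 to 5, against 0.27, 0.13, -0.05, -0.22 and -0.13 in ctrl replicates 1 to 5. The groups did not overlap in this contrast, which is given as a description because the 3 genes had been chosen for it. The mean contrast was -0.83, and -0.66 without mTKO replicate 4.

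**Figure D3:**
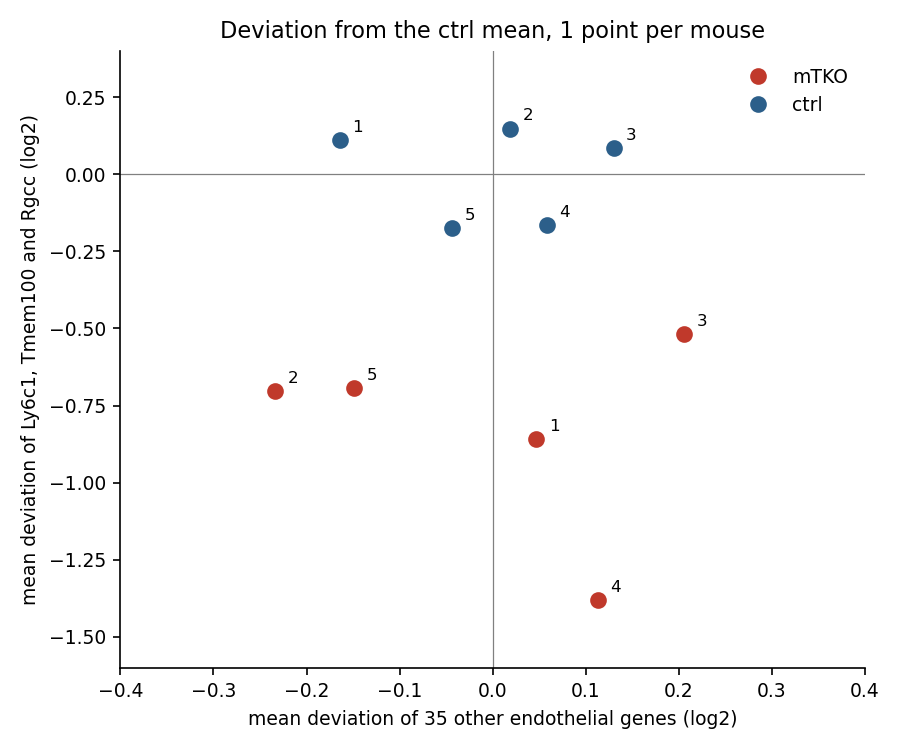
Mean deviation from the ctrl mean (log2) of *Ly6c1*, *Tmem100* and *Rgcc* on the y axis against that of the 35 other endothelial cell genes on the x axis, 1 point per mouse labelled with its replicate number, mTKO in red and ctrl in blue. Along x the mTKO mice lie between -0.23 and 0.21 and the ctrl mice between -0.16 and 0.13, and along y the mTKO mice lie between -1.38 and -0.52, below all ctrl mice.

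Many endothelial genes shared the array in which they were lowest or highest within a genotype. The mTKO replicate 2 had the lowest mTKO value in 16 of the 38 genes and replicate 3 the highest in 16 of 38, where replicate 2 was lowest in 20.8% and replicate 3 highest in 19.4% of all genes. In mTKO replicate 2, 7 of the 35 other genes lay above their ctrl mean, and in replicate 3 this was true of 25. Among ctrl mice, replicate 1 was the lowest in 13 of 38 genes. *Rgcc* and *Tmem100* were lowest in mTKO replicate 4 and *Ly6c1* in replicates 4 and 5, while *Ly6c1* and *Tmem100* shared the highest array, replicate 3, and *Rgcc* was highest in replicate 5.

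**Figure D4:**
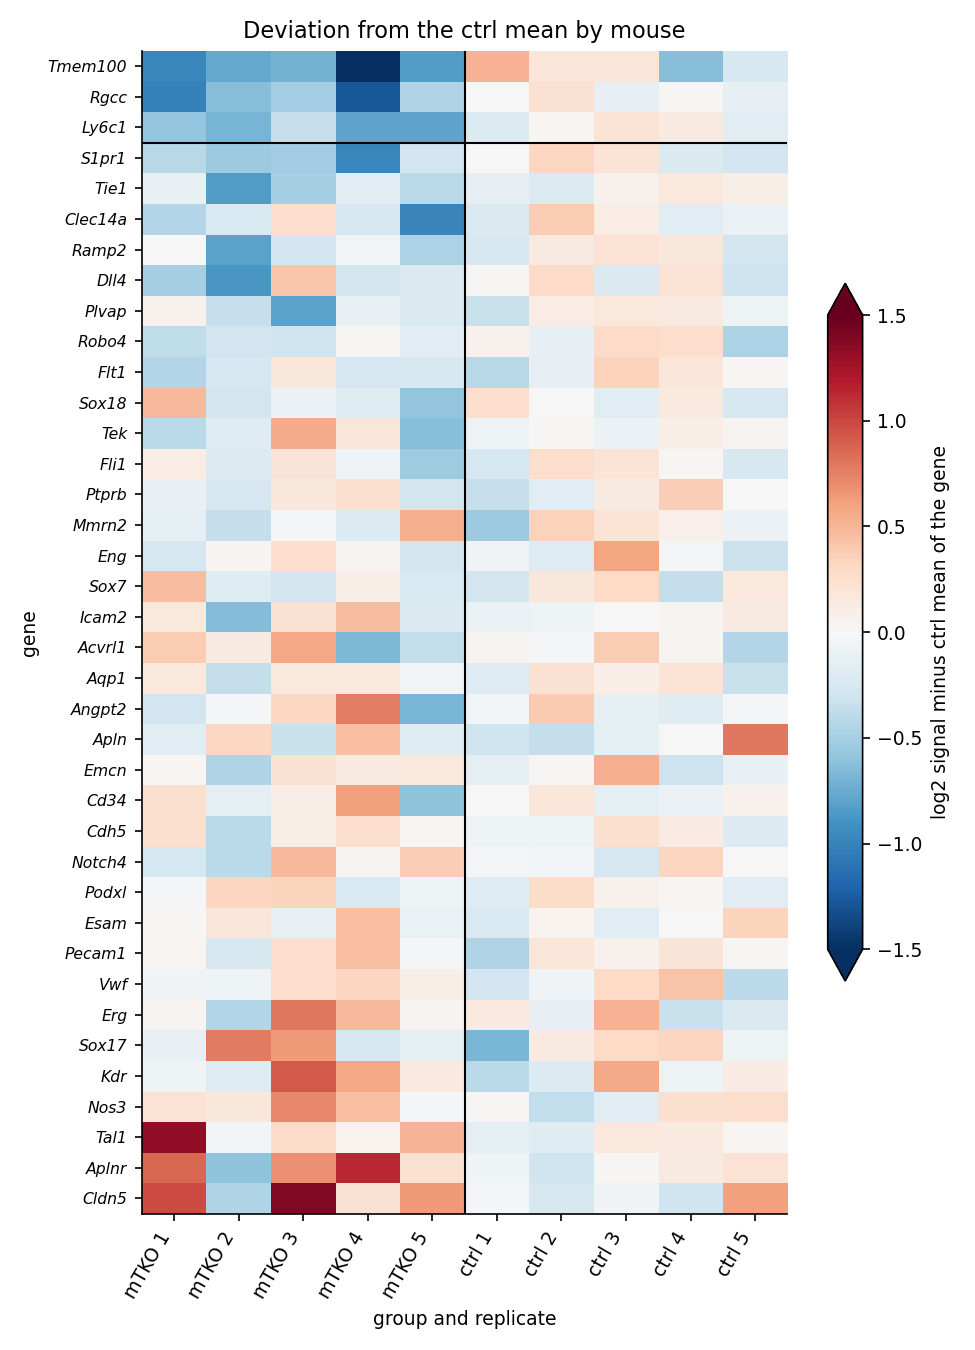
Deviation of each array from the ctrl mean of the gene (log2, colour scale cut at 1.5 on either side) for 38 endothelial cell genes, with mTKO columns left of ctrl columns and *Tmem100*, *Rgcc* and *Ly6c1* above the line. These 3 rows are blue in all 5 mTKO columns, as are those of *S1pr1* and *Tie1*, and the remaining 33 rows mix both colours.

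Because *Ly6c1*, *Rgcc* and *Tmem100* are all transcripts of capillaries, the other genes of a capillary list were read as well. Of its 14 genes, 5 had an unadjusted limma p under 0.05 and were lower in mTKO muscle, against 3.26% of all probe sets. They were the 3 genes themselves, which had been picked with their values known, *Gpihbp1* and *Tcf15*. The authors had already reported altered *Gpihbp1* expression from this transcriptome, and the list was chosen with earlier results known. The count of 5 against that share therefore reflects known results. Without the 38 genes, 10 remained, *Gpihbp1* among them, of which 2 were lower at that threshold, 3 were negative and the median was 0.13. *Gpihbp1*, another Ly6 family protein, carries lipoprotein lipase across the capillary wall. It had a log2 signal of 9.96, 9.23, 9.76, 9.34 and 9.70 in mTKO replicates 1 to 5, against 10.15, 9.75, 10.59, 10.49 and 10.11 in ctrl replicates 1 to 5. The ranges overlapped between 9.75 and 9.96, with a difference of -0.62 (adjusted p from limma 0.677). *Tcf15*, a factor that drives fatty acid uptake in muscle endothelium together with *Meox2*, differed by -0.47 (adjusted p from limma 0.783), and *Meox2* by 0.23. *Cd36*, *Fabp4* and *Lpl*, which serve fatty acid uptake and are also expressed in myofibers or adipocytes, differed by 0.25, 0.22 and 0.19. *Car4* and *Cd300lg*, surface genes of capillaries, differed by 0.20 and 0.07, and *Aqp7* and *Btnl9* by 0.00 and -0.27.

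Other vessel beds had no common direction. Of all probe sets, 3.26% were lower and 3.1% higher at an unadjusted limma p under 0.05. In the arterial list 5 of 10 differences were negative with a median of -0.004, and *Bmx*, a kinase of arterial endothelium, was higher at an unadjusted limma p of 0.0368 (difference 0.50, adjusted p 0.783). *Bmx* was dim, with a mean log2 signal of 4.13, below the median of all probe sets. In the venous list 4 of 8 were negative with a median of 0.03, in the list for sprouting endothelium 3 of 8 with a median of 0.02, and in the lymphatic list 4 of 7 with a median of -0.13. None of these last 3 lists held a gene at an unadjusted limma p under 0.05. Of 10 genes of the vessel basement membrane 4 were negative, the median was 0.11, and *Lamb1*, a laminin chain also made by other cells, differed by 0.59 (adjusted p from limma 0.768). In the list of hypoxia-induced genes 8 of 11 were negative, with a median of -0.11 and no gene at that threshold.

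**Figure D5:**
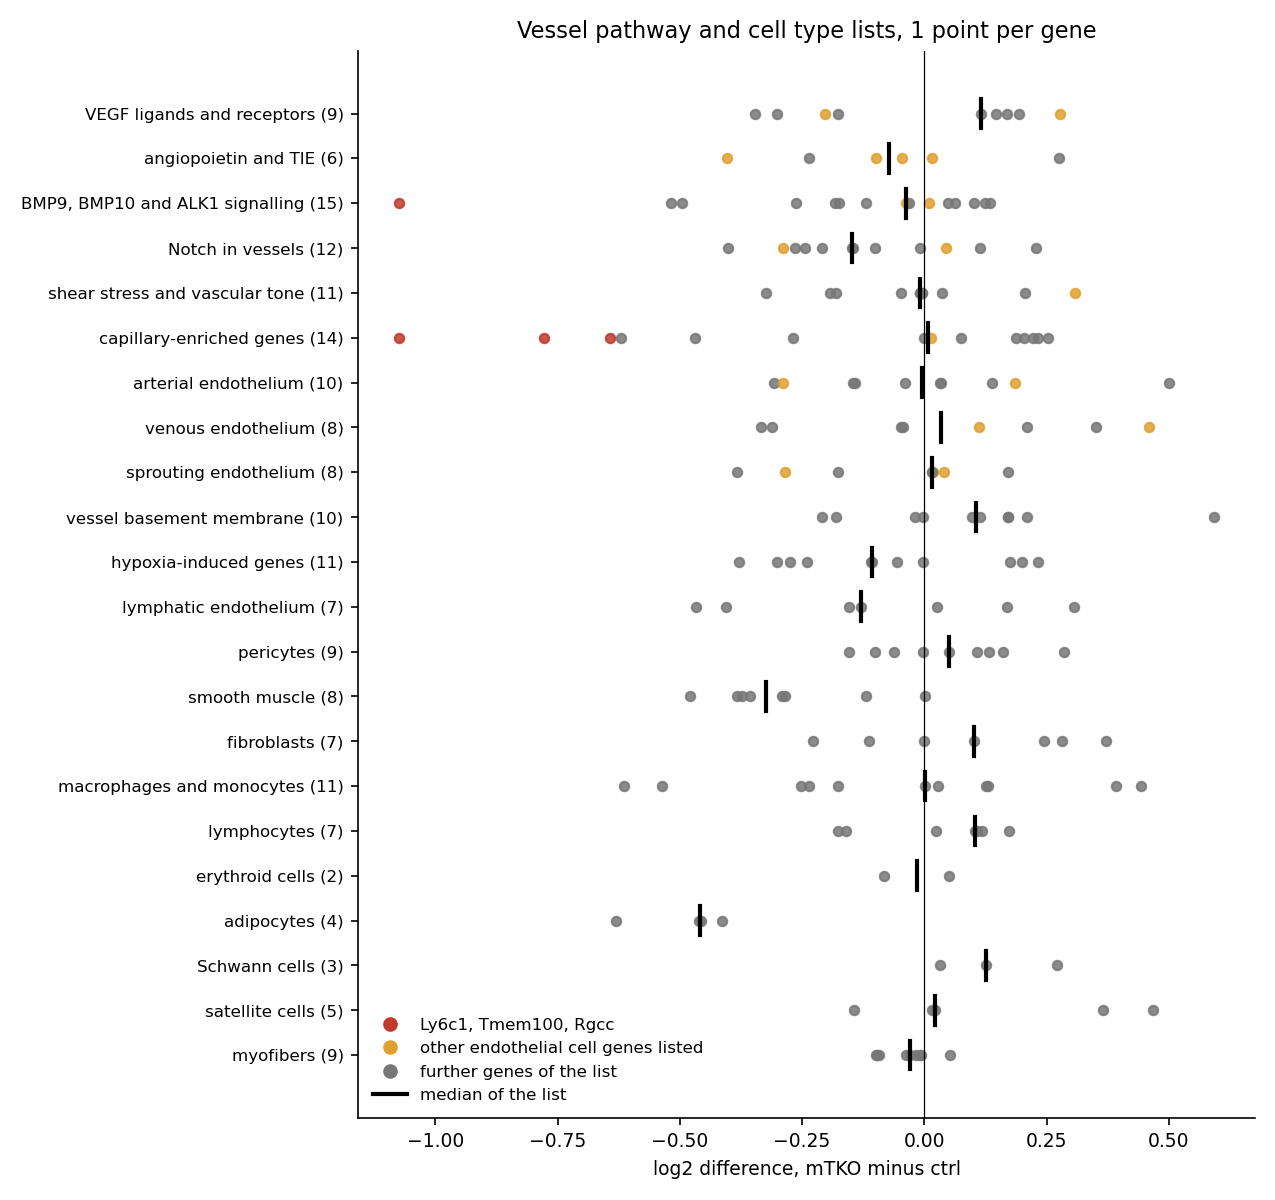
Log2 difference (mTKO minus ctrl) of each gene in lists of vessel pathways and cell types, 1 point per gene, with the median as a black bar and the number of measured genes in parentheses. *Ly6c1*, *Tmem100* and *Rgcc* (red) lie to the left of every other gene of their lists, and list medians run from -0.46 for adipocytes to 0.13 for Schwann cells.

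Markers of other cells in whole muscle were read beside these results, and no list was tested as a set. Over all probe sets, 6.36% had an unadjusted limma p under 0.05, 3.26% lower and 3.1% higher. The 9 pericyte genes had 4 negative differences and a median of 0.05, and their mean log2 signal ranged from 9.45 to 9.93 in mTKO muscle and from 9.62 to 9.86 in ctrl muscle. Smooth muscle genes, which mark the wall of larger vessels, were negative in 7 of 8 with a median of -0.32. Their mean log2 signal was 7.81 to 8.02 in mTKO muscle and 7.92 to 8.37 in ctrl muscle. *Tagln* and *Myh11*, both of the contractile apparatus, had unadjusted limma p under 0.05, with differences of -0.48 and -0.38 (adjusted p 0.783 each). For macrophages and monocytes 5 of 11 were negative with a median of 0.002 and a mean log2 signal of 7.11 to 7.60 in mTKO muscle, against 7.08 to 7.67 in ctrl muscle. Within this list *Ly6c2* and the macrophage receptor gene *Adgre1* (difference -0.54) were lower and *Mrc1*, encoding the mannose receptor, was higher (0.44) at an unadjusted limma p under 0.05, with adjusted p of 0.726, 0.763 and 0.783. The mean log2 signal of *Adgre1*, 6.04, lay just below the median of all probe sets. The monocyte receptor gene *Ccr2* differed by 0.13, *Itgam* by 0.13 and *Lyz2* by 0.03.

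Adipocyte genes were negative in 4 of 4 with a median of -0.46 and a mean log2 signal of 4.35 to 6.73 in mTKO muscle, against 5.02 to 7.22 in ctrl muscle. Only *Lep*, the gene for leptin, had an unadjusted limma p under 0.05 there (difference -0.46, adjusted p 0.768). Its mean log2 signal of 4.42 was below the median of all probe sets. The 7 fibroblast genes had a median of 0.10 and the 9 myofiber genes one of -0.03, with mean log2 signals of 12.14 to 13.55 and of 18.85 to 18.90 in mTKO muscle, against 12.38 to 12.83 and 18.88 to 18.94 in ctrl muscle. The highest fibroblast mean was that of mTKO replicate 4, which deviated by 0.999 from the ctrl mean, against -0.404 to 0.133 in the other mTKO mice. This array also had the lowest *Tmem100* and *Rgcc* and the lowest array weight, 0.807. A link between these was not tested. All 7 lymphocyte genes had a mean below the median of all probe sets. Satellite cell genes had a median of 0.02, and *Pax7*, their defining factor, differed by 0.47 (adjusted p from limma 0.759). The mean log2 signal of *Pax7* was 4.91, also below that median of all probe sets. The part of smooth muscle cells, monocytes and adipocytes in the lower signal of *Ly6c1*, *Tmem100* and *Rgcc* was not tested.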

How the data were processed

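GTN muscle of 5 mTKO and 5 ctrl mice was hybridized to Clariom S mouse arrays, with a single mouse on each. The authors computed the deposited log2 signals with RMA (SST-RMA) in Affymetrix Expression Console 1.4. These values are background-corrected, normalized between arrays and rounded. Differences near the floor may be compressed, which was not measured. Precision is limited by the number of arrays. The median of all values was 6.10. Array values correlated at 0.986 to 0.990, and no arrays held identical values. Of 22206 probe sets, 19572 had 1 symbol, 2634 had none, and for 55 genes with several the brightest was used. An array build is not given in the sources used here, so gene coordinates come only from the RefSeq promoter table.

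The genotype contrast was fitted with limma 3.58.1 under R 4.3.3, using default eBayes moderation (prior degrees of freedom 7.53). P-values were adjusted by Benjamini-Hochberg over all probe sets and read at 0.05. For single genes, a two-sided exact permutation test ran over 252 assignments of the arrays. The steps were tested on simulated data. Plots were made in matplotlib 3.10.9 (Python 3.11).

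The genes named were all endothelial genes, with array values for *Ly6c1*, *Tmem100*, *Rgcc*, *Cdh5*, *Pecam1*, *Kdr*, *Tek* and any at an unadjusted p under 0.05, up to 4 genes of smallest p per list, *Ly6c2* and *Txnrd2*. Other genes of the capillary, BMP9 and monocyte lists, the array values of *Gpihbp1*, and the neighbours of *Ly6c1* were added after values were seen. The members and lists were chosen with earlier results of these data known. Alternatives were the methods' t-test, array weights, trended and robust eBayes, cyclic loess, quantile normalization, median centring, a filter on dim probe sets, averaging the probe sets of a gene, the replicate number as a block, leaving out each array, and subtraction of the mean of the other endothelial genes. The count at an unadjusted p was added after seeing the data.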

Additional observations from a re-analysis of the deposited data

Results flagged for a closer look

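In 4 of 84 groups of 5 arrays examined, 1 array stood far from the other 4, and chance alone marks about 1 group in 20. *Tmem100* had a log2 signal of 7.85 in mTKO replicate 4, where the other mTKO mice had 8.95 to 9.23. *Emcn* was at 10.92 in mTKO replicate 2, below the 11.41 to 11.60 of the other mTKO mice. *Pecam1* was at 10.64 in ctrl replicate 1, with the other ctrl mice at 11.11 to 11.29, and *Angpt2* was at 7.32 in ctrl replicate 2, above the 6.75 to 6.90 of the others.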

How the results depend on the processing

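Over all alternatives run, the log2 difference of *Ly6c1* lay between -0.72 and -0.59, that of *Tmem100* between -1.24 and -0.82 and that of *Rgcc* between -0.86 and -0.65. Adjusted p ranged from 0.0453 to 0.953, from 0.242 to 0.953 and from 0.13 to 0.985, so only *Ly6c1* passed the threshold, under the trended and robust limma prior alone (difference -0.642). That prior called 9 probe sets against 1 in the default limma fit, and 1 of the 38 genes against 0. The filter on dim probe sets called 3 probe sets. The methods' t-test and quantile normalization called 0 after adjustment. The methods' t-test at an unadjusted p under 0.05 with a fold change above 2 called 13 probe sets, and 1 of the 38 genes, *Tmem100*. The single call of the default fit was lost without mTKO replicate 1 or 3 or any 1 ctrl replicate, so the count ran from 0 to 1, and among the 38 genes it stayed at 0. Leaving out arrays in turn gave 4 to 7 genes at an unadjusted p under 0.05 and 15 to 26 negative differences of 38. The mean of the 3 genes less that of the others ran from -0.92 to -0.66. Causes of these changes were not tested.

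Same-numbered mTKO and ctrl arrays correlated at 0.04, 0.16, -0.04, 0.02 and 0.06 in their deviations, so no strong effect shared by number was seen. The labels do not say whether same-numbered mice were littermates or were processed together. With the replicate number as a block, 1 probe set and 0 of the 38 genes were called, and 6 had an unadjusted p under 0.05. With 5 arrays per group, the median 95% interval of the 35 other genes reached 0.40 to either side.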

Other observations

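*Ly6c1* lies in a cluster of Ly6 family genes on chromosome 15, and the measured genes on either side were read after the values of *Ly6c2* and *Gpihbp1* had been seen. Among the 8 measured neighbours to each side, *Ly6c2* and *Gpihbp1* were lower in mTKO muscle at an unadjusted limma p under 0.05. *Ly6i*, next to *Ly6c1* and dim with a mean log2 signal of 4.97, was higher (log2 difference 0.40, limma adjusted p 0.783). Over all probe sets, 3.26% were lower and 3.1% higher at that threshold. Most of the neighbours had a mean below the median of all probe sets, where a difference is harder to see. *Ly6e*, a bright and interferon-induced family member, differed by -0.16, *Ly6h* by 0.06, *Ly6f* by -0.13 and *Ly6k* by -0.03. *Ly6h*, *Ly6f* and *Ly6k* were dim, with mean log2 signals of 5.48, 4.74 and 4.75.

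*Hes1*, a Notch target, did not overlap between groups, with a log2 signal of 5.56 to 5.84 in mTKO muscle and of 5.85 to 6.1 in ctrl muscle. The difference was -0.26 (unadjusted limma p 0.0808, adjusted p 0.825). The gap between the groups was only 0.01, and the mean log2 signal of 5.82 was below the median of all probe sets. Over all probe sets, the groups did not overlap in 1.02%.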
